A study of Mus musculus with 8 samples.

Results

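The 10 immediate early genes Fos, Fosb, Jun, Junb, Egr1, Egr2, Atf3, Ier2, Ier3 and Dusp1 were followed in mouse liver over genotype and weeks of high-fat diet. They were chosen by name and because the genotype pair at 20 weeks differed most, so the values of that pair are given as a description, with no test. All 10 were among the 15338 genes measured, that is, well above background on at least 2 of the 8 arrays, and 12 of the 41174 non-control probes carry their names. The arrays were one-colour Agilent arrays hybridised with liver RNA of AIM-/- (KO) and AIM+/+ (WT) mice of C57Bl/6 background. AIM, the apoptosis inhibitor of macrophages, is a secreted protein encoded by Cd5l and made mainly by tissue macrophages.

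For each genotype there was 1 array at each of 4 stages: normal chow, written as 0 weeks, and 6, 12 and 20 weeks of high-fat diet. The groups are therefore KO and WT at 0 weeks, KO and WT at 6 weeks, KO and WT at 12 weeks, and KO and WT at 20 weeks. The labels give neither age nor sex, and do not say whether an RNA came from 1 animal or a pool. No genotype has a replicate at a given week, so p-values below rest on the spread left over after a genotype term and a week term. A genotype difference that changes from week to week counts as error in that spread.

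Immediate early genes are transcribed within minutes of a stimulus from factors already present in the cell, without new protein synthesis, and their mRNAs decay fast. MAP kinase signalling through serum response factor and its ETS partners, and cAMP signalling through CREB, are the best known routes to their promoters. In liver they rise after partial hepatectomy, ischaemia, endotoxin, feeding or fasting cues and the handling of the tissue itself. Fos, Fosb, Jun and Junb encode AP-1 subunits, Egr1 and Egr2 zinc finger activators, Atf3 a stress-induced repressor of the ATF/CREB family, Ier2 and Ier3 short-lived response proteins, and Dusp1 a phosphatase that switches MAP kinases off.

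Promoter windows from 250 bases before to 50 after a start site were given for 8 of the 10 genes, in 12 windows (RefSeq, GRCm38.p6), and were searched on both strands for binding motifs of those routes. Egr1 and Ier2 were not matched. The 250 bases before the start, 5′ to 3′ on the gene's strand, are shown for 4 genes, because they hold the elements named next and represent an AP-1 partner pair, a zinc finger factor and the feedback phosphatase. The stretches are chr12:85473640-85473889 on the plus strand for Fos, chr4:95052223-95052472 on the minus strand for Jun, chr10:67537619-67537868 on the plus strand for Egr2 and chr17:26508473-26508722 on the minus strand for Dusp1. Capitals mark the cAMP response element half-sites TGACG in Fos, the match to TGACNTCA in Jun, the CArG box in Egr2 and the full element TGACGTCA in Dusp1.
Fos: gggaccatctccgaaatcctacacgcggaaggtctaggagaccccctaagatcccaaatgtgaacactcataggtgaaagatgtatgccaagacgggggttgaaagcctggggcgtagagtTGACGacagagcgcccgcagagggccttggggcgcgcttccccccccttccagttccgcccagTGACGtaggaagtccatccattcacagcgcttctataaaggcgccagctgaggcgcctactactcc
Jun: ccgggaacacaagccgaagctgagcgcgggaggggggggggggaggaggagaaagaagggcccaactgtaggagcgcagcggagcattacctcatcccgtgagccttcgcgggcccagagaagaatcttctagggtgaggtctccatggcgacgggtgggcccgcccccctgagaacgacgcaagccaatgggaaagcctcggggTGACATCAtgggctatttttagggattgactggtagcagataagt
Egr2: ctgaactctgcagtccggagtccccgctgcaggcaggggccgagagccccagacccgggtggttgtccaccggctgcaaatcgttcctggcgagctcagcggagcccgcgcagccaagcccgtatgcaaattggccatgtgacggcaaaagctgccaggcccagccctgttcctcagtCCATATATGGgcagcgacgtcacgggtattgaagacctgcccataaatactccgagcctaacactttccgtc
Dusp1: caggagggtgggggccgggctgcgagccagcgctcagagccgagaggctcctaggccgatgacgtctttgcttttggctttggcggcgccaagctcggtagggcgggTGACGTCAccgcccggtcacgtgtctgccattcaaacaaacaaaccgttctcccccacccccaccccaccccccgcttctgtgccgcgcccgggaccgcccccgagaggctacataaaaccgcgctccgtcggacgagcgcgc

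The cAMP response element TGACGTCA, which CREB binds, was in the window of Dusp1 alone among the 8 genes, 143 bases before the start, and in 1.79% of all 32851 windows. The CArG box, bound by serum response factor (CC, 6 bases of A or T, GG), was in 4 of the 5 Egr2 windows and in no window of the other 7 genes, against 1.63% of all windows. The Egr2 windows starting at 67537619, 67537620 and 67537680 overlap and hold the same box, CCATATATGG, so they are not separate matches. The EGR site GCGNGGGCG was in the Fosb window, 50 bases before the start, and in 5.55% of all windows. The AP-1 site TGANTCA was in none of the 8 genes' windows and in 7.81% of all. Both TGACNTCA, which includes the full cAMP element, and the half-site TGACG, which the full element also holds, were added after the first search. TGACNTCA was in the windows of Dusp1 and Jun (8.83% of all windows), and TGACG in those of Atf3, Dusp1, Egr2, Fos, Fosb and Junb (20.8% of all). A gene is counted here where any of its windows held the motif, while the shares are of single windows. By window, TGACG was in 8 of the 12. These are matches of letters and no evidence of binding.

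Values below are scaled signals: each array was scaled to its own 75th percentile and set back to a common level, so that 284 stands for the 75th percentile of an array. Signals of different probes share no scale, so each gene is compared only with itself. A probe is called well above background where the scanner software flagged at least 50% of its spots so. On the arrays at 0, 6, 12 and 20 weeks, 6, 8, 10 and 10 of the 10 genes were well above background in KO livers, against 6, 6, 9 and 10 in WT livers.

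Of all probes, 18586 to 21119 of 41174 were well above background on an array. Cd5l, the deleted gene, was at least 129.7-fold lower in KO than in WT livers at each week. The hepatocyte genes Alb, Apoa1 and Ttr were well above background on all 8 arrays. All KO arrays lay on 1 slide and all WT arrays on the other, and the position on the slide followed the week, so that genotype and slide cannot be told apart. Both 20-week arrays differed from the 6 earlier arrays in sex-linked genes: Ddx3y, Eif2s3y and Kdm5d, on the Y chromosome, were well above background on the 6 arrays at 0 to 12 weeks and on neither 20-week array. Xist, which is expressed from the inactive X, stood at 764 in the KO and 805 in the WT at 20 weeks and reached at most 155 on the other arrays. Of those, it was well above background in KO at 6 weeks, with 155 against 13.3 in WT, and in WT at 12 weeks, with 67.0 against 6.34 in KO. The 6-week and 12-week pairs thus differ within themselves in Xist, with the Y-linked genes well above background on both arrays of each pair. Any step between the 20-week arrays and the earlier ones coincides with a change in these sex-linked genes, while the 20-week pair matches itself in them. The part of these differences in the results, within a pair or between weeks, was not tested.

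**Figure D1:**
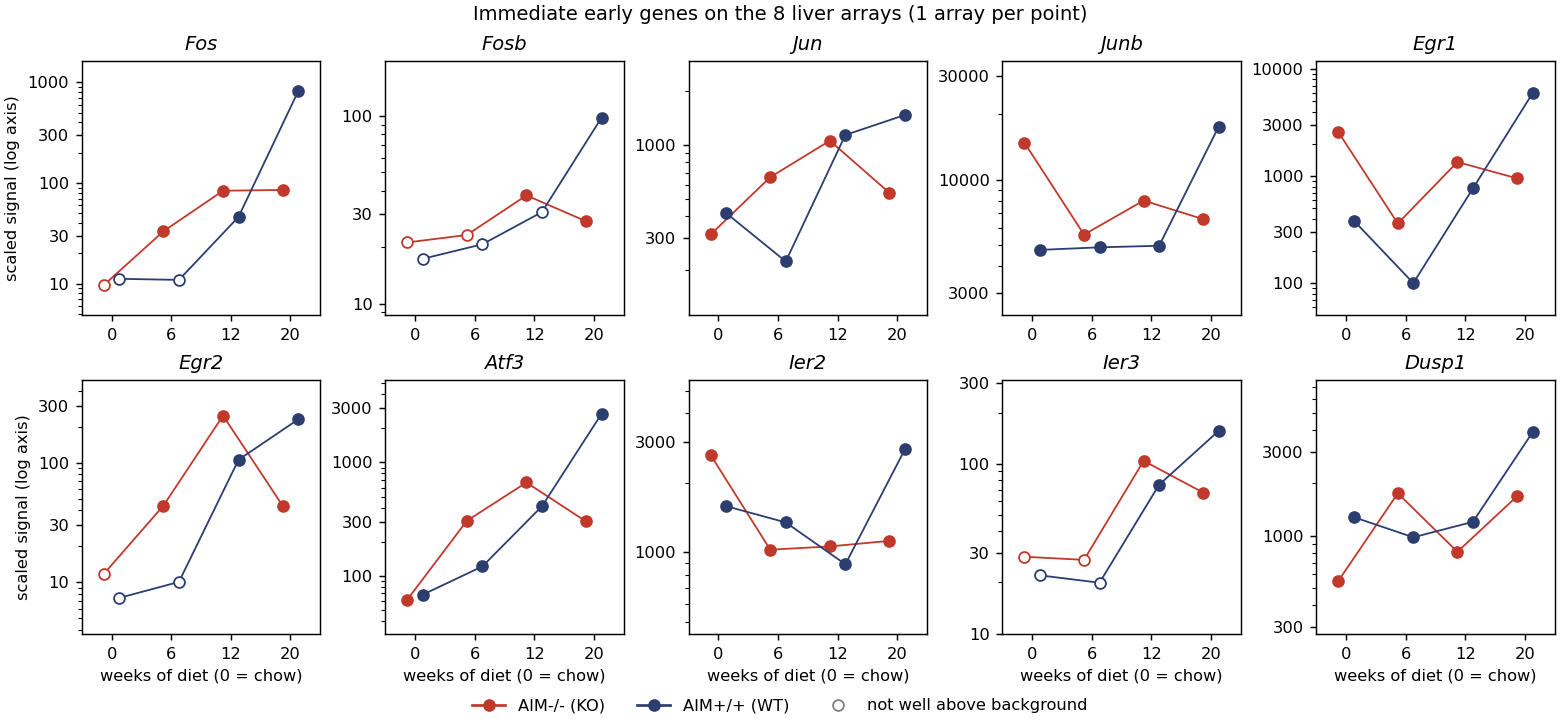
Scaled signal (log axis) of the 10 immediate early genes against weeks of high-fat diet in KO (red) and WT (blue) livers, with 1 array per point and open circles for probes not well above background. The WT array at 20 weeks is the highest for 9 of the 10 genes, and the exception is Egr2, which is highest in the KO at 12 weeks.

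The AP-1 subunits were at their highest in WT liver at 20 weeks. Fos, the partner that gives AP-1 its strongest activity, had scaled signals of 9.68, 33.1, 83.8 and 85.3 in KO livers at 0, 6, 12 and 20 weeks, against 11.2, 10.9, 46.1 and 815 in WT livers. Fos was not well above background in either genotype on chow or in WT at 6 weeks, and the 20-week WT array stood 9.55-fold above the next highest, the 20-week KO array. Fosb, a close relative of Fos, had 21.2, 23.2, 37.7 and 27.5 in KO livers, against 17.3, 20.7, 30.8 and 97.9 in WT livers. Fosb passed background on the fewest arrays, only in KO at 12 weeks and in both genotypes at 20 weeks.

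Jun, the partner of Fos that can also pair with itself, had 316, 660, 1055 and 539 in KO livers at the same weeks, against 416, 223, 1136 and 1468 in WT livers. At 20 weeks the KO array of Jun lay inside the range of the 6 earlier arrays. Junb, a Jun relative that often restrains AP-1, had 14780, 5581, 8008 and 6573 in KO livers, against 4748, 4879, 4961 and 17541 in WT livers. The 3 earlier WT arrays of Junb lay within a narrow band, and its KO chow array came within 1.19-fold of the 20-week WT array.

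The zinc finger genes did not share 1 course. Egr1, an activator induced through serum response factor, had 2592, 361, 1356 and 954 in KO livers, against 385, 100.2, 768 and 5941 in WT livers. Its lowest array was WT at 6 weeks and its highest WT at 20 weeks, a 59.3-fold range. Egr2, its relative, had 11.7, 43.7, 248 and 43.6 in KO livers, against 7.39, 10.05, 106 and 230.0 in WT livers. Egr2 was the only gene of the 10 that was higher in the KO at 12 weeks than in the WT at 20 weeks, by 1.08-fold.

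Atf3, the stress-induced repressor, had 61.7, 306, 665 and 301 in KO livers, against 68.3, 121, 410 and 2675 in WT livers. It was well above background throughout, and the 20-week WT array stood 4.02-fold above the next. Ier2, a nuclear protein of the early response, had 2637, 1027, 1062 and 1122 in KO livers, against 1585, 1348, 889 and 2792 in WT livers. For Ier2 the chow KO array nearly matched the 20-week WT array, which was 1.06-fold higher. Ier3, which modulates survival under stress, had 28.3, 27.2, 104 and 67.6 in KO livers, against 22.0, 19.9, 75.2 and 156 in WT livers. Ier3 passed background at 12 and 20 weeks in both genotypes and on none of the earlier arrays. Dusp1, the MAP kinase phosphatase, had 549, 1742, 807 and 1675 in KO livers, against 1274, 977, 1197 and 3879 in WT livers. It was higher in the KO at 6 weeks only.

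The 20-week WT array was the highest of all 8 for 9 of the 10 genes, where 10.2% of all 15338 genes were highest on it. It stood at least 2-fold above the next array for 5 of the 10 (Fos, Atf3, Fosb, Egr1 and Dusp1), a property of 0.391% of all genes. Because the 20-week pair chose these genes, the counts describe the choice. For Fos the 20-week KO array was just above the highest of the 6 earlier arrays, 85.3 against 83.8, and for the other genes it lay within their range. How many of all genes lay within that range was not counted, so this does not set the 10 genes apart. The mean scaled log2 value (log2 of the signal over the array's 75th percentile) of the 6 genes well above background on all 8 arrays (Jun, Junb, Egr1, Atf3, Ier2 and Dusp1) was 1.83, 1.74, 2.27 and 1.97 in KO livers at 0, 6, 12 and 20 weeks, against 1.27, 0.84, 1.97 and 3.83 in WT livers.

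At 20 weeks every one of the 10 genes was lower in the KO. The log2 difference, KO minus WT, was -3.26 for Fos (9.55-fold lower), -3.15 for Atf3 (8.87-fold), -2.64 for Egr1 (6.23-fold), -2.40 for Egr2 (5.28-fold) and -1.83 for Fosb (3.56-fold). It was -1.45 for Jun, -1.42 for Junb, -1.32 for Ier2, -1.21 for Dusp1 and -1.21 for Ier3, or between 2.31-fold and 2.72-fold lower. All 10 were thus at least 2-fold lower, as were 2.23% of the 14912 genes well above background on at least 1 of those arrays. The median over the 10 was -1.64, against 0.03 over all genes. Dusp1 and Ier3 were the closest to 2-fold, both 2.31-fold or more lower, and of the 10 none fell on the other side.

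**Figure D2:**
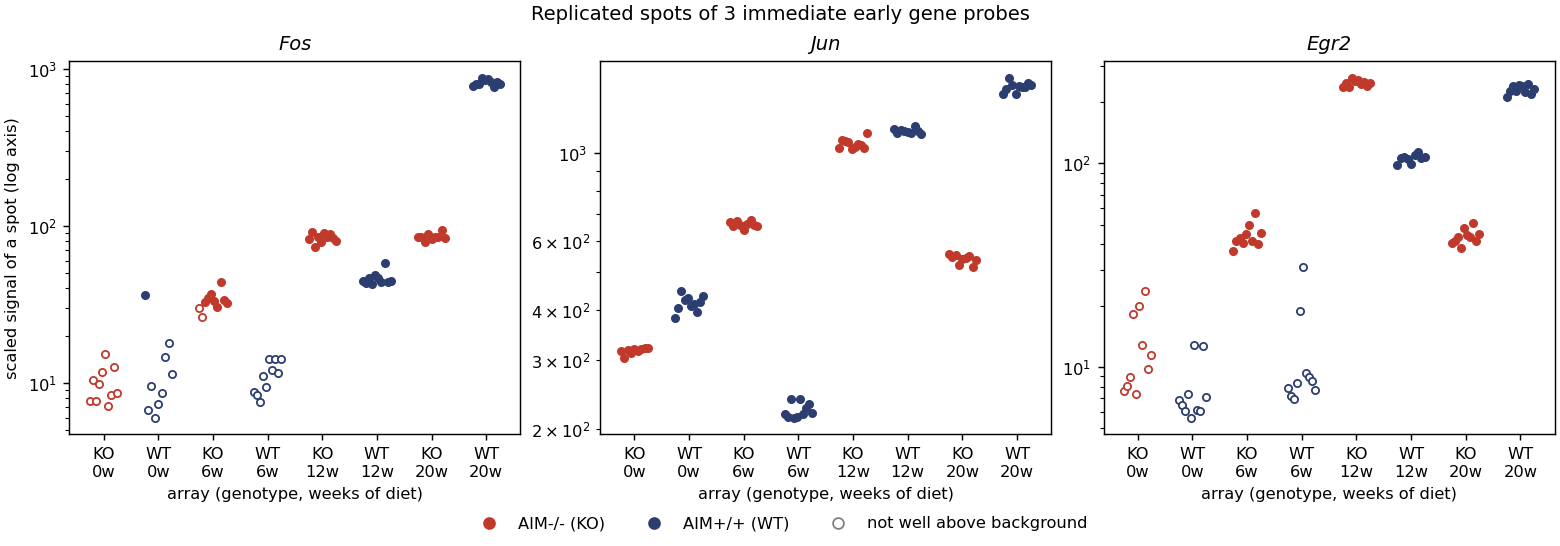
Scaled signal (log axis) of each replicated spot of the Fos, Jun and Egr2 probes on the 8 arrays, KO in red and WT in blue, with open circles for spots not well above background. At 20 weeks the KO spots of Fos lie between 78.7 and 94.7 and the WT spots between 769 and 872.

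The probes of Fos, Jun and Egr2 were printed 10 times on each array, which gives the technical error of a value. At 20 weeks the spots of Fos ranged over 78.7 to 94.7 on the KO array and 769 to 872 on the WT array. Those of Jun ranged over 515 to 556 on the KO array and 1406 to 1547 on the WT array, and those of Egr2 over 38.3 to 50.7 on the KO array and 210 to 245 on the WT array. The SD of Fos spots was 0.07 in KO and 0.06 in WT on the log2 scale. Because this pair chose the genes, the distance between the spots of its arrays is no test of genotype. Over replicated probes with every spot well above background, 118 to 142 on an array, the pooled SD of a spot was 0.07 to 0.12 on an array. This error covers spotting and scanning on 1 RNA preparation and says nothing of the spread between animals. In Fos at 0 weeks and in Egr2 at 0 weeks and WT at 6 weeks, spots below background scattered with SDs of 0.36 to 0.82, so those values carry no order.

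Ier2 and Junb each had a second probe. At 20 weeks the brighter Ier2 probe, used above, was 2.49-fold lower in the KO and the dimmer one 1.62-fold, with 92.3 in KO and 149 in WT, which is under 2-fold. Both Junb probes were at least 2-fold lower in the KO, 2.67-fold and 2.13-fold. The Junb probes overlap in position and disagreed in direction at 6 weeks, with log2 differences of 0.19 for the brighter and -0.28 for the dimmer.

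**Figure D3:**
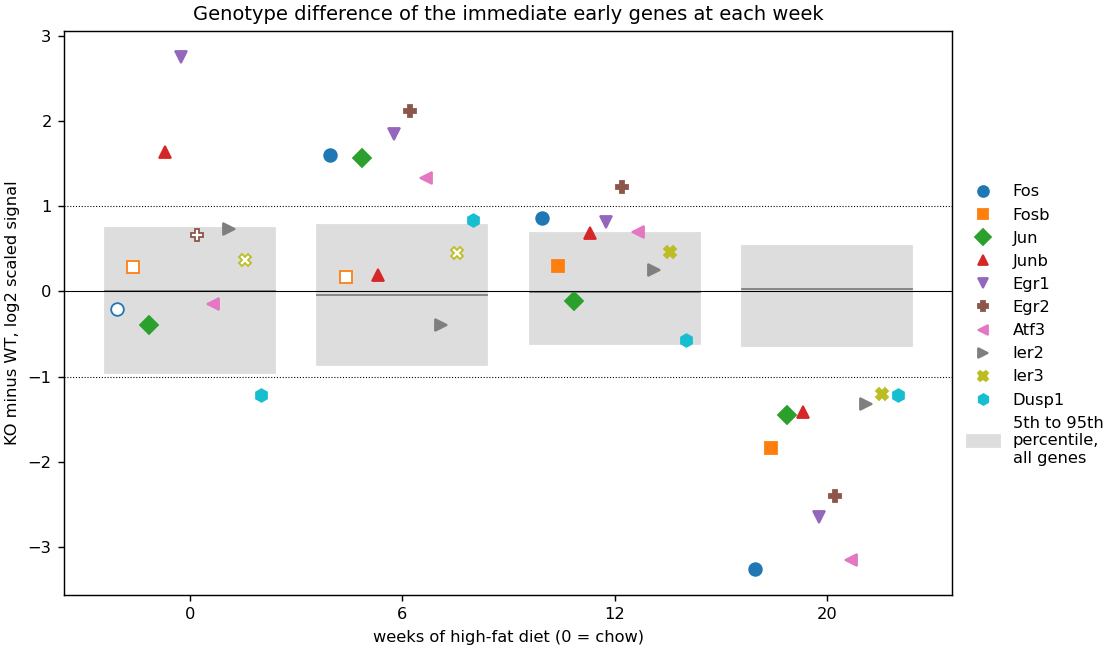
KO minus WT difference of log2 scaled signal for each of the 10 genes at 0, 6, 12 and 20 weeks, with open symbols where neither array was well above background and grey boxes for the 5th to 95th percentile of all genes well above background on at least 1 array of the pair. All 10 genes lie below -1 at 20 weeks, and at 6 weeks 5 genes lie above 1.

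At the earlier weeks the genotype difference did not have this direction. On chow 6 of the 10 genes were well above background on at least 1 array of the pair, 3 lower and 3 higher in the KO. Of the 6, 2 were at least 2-fold higher in the KO (3.15% of all genes), Egr1 by 6.73-fold and Junb by 3.11-fold. Dusp1 was at least 2-fold lower (4.69% of all genes), by 2.32-fold. At 6 weeks 8 genes could be compared, of which 7 were higher in the KO and only Ier2 was lower, by 1.31-fold, with no gene 2-fold lower where 3.76% of all genes were. Of these, 5 were at least 2-fold higher (3.28% of all genes), and the median over all 10 genes was 1.08, against -0.05 over all genes measured at that week.

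Egr1 was 3.61-fold, Jun 2.96-fold and Atf3 2.52-fold higher in the KO at 6 weeks, with both arrays well above background. Egr2 and Fos passed background only in the KO at 6 weeks, so their ratios are lower limits, set against the lowest signal well above background on the WT array: at least 1.46-fold for Egr2 and at least 1.11-fold for Fos. Counting only the 6 genes well above background on both arrays leaves 3 at least 2-fold higher. At 12 weeks all 10 could be compared, 8 higher and 2 lower (Jun and Dusp1) in the KO. Only Egr2, at 2.34-fold, was at least 2-fold higher, as were 2.73% of all genes, and no gene was 2-fold lower, where 2.17% of all genes were. The median at 12 weeks was 0.58. Junb and Egr1 were higher in the KO at each of the 3 earlier weeks and lower at 20 weeks.

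The question whether genotype shifted these genes before 20 weeks was tested without the arrays that chose them. limma was fitted to the 6 arrays at 0, 6 and 12 weeks with genotype and week as terms, which leaves 2 residual degrees of freedom, over the 14553 genes well above background on at least 2 of the 6. Of the 10 genes 9 entered, and Fosb did not, being above background on 1 of the 6 arrays. None of the 9 passed an adjusted p of 0.05 (limma, Benjamini-Hochberg), where 0.0% of all genes passed upwards and 0.00687% downwards, namely Cd5l alone (log2 difference -7.34, SE 0.16, adjusted p = 0.0106). At an unadjusted p under 0.05 the count was 3 of the 9 genes, against 6.06% of all genes.

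The fitted KO minus WT difference was above 0 for 8 of the 9 genes and below 0 for Dusp1. The largest was that of Egr1 at 1.81 (SE 0.40, limma adjusted p = 0.641), and that of Junb was 0.84 (SE 0.31, limma adjusted p = 0.829). Egr2 was fitted at 1.34 (SE 0.31, limma adjusted p = 0.641), but 3 of its 6 arrays were not well above background, so no fold is given. The difference of Egr1 reached 2-fold on arrays all well above background, as did the fitted value of Egr2 and those of 1.09% of all genes, and none of the 9 was 2-fold lower, as 1.28% of all genes were. The median of the 9 was 0.63, against -0.01 over all genes tested. The limma adjusted p-values of the 9 ran from 0.641 to 0.994. Leaving out the 6-week pair turned the sign of Jun to -0.25, and leaving out the chow pair turned Ier2 to -0.068 and Dusp1 to 0.13.

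The same fit compared diet with chow. For the mean of 6 and 12 weeks minus chow, 6 of the 9 genes had differences above 0 and 3 below, and none passed the adjusted threshold, nor did any of the 14553 genes (0.0% in each direction by limma). At an unadjusted p under 0.05 there were 6 of the 9, against 20.3% of all genes. Fitted differences reached 2-fold upwards for 3 of the 9 (5.14% of all genes) and downwards for 1 (2.36%). Of the 3, Atf3 alone was well above background on every array. Egr2, Fos and Ier3 entered the fit only through diet arrays, the side where they were higher. Their part in the counts of this contrast, and their p-values, are therefore no test. Atf3 was 4.88-fold higher on the diet (log2 difference 2.29, SE 0.34, limma adjusted p = 0.0928), and all 4 diet arrays lay above both chow arrays. Egr2 was at least 1.91-fold higher (limma adjusted p = 0.0811), Ier3 at least 1.49-fold (limma adjusted p = 0.0886) and Fos at least 1.13-fold (limma adjusted p = 0.15), each a limit set against the lowest signal well above background, because neither chow array passed it. On the diet, Egr2 and Fos were well above background on 3 of the 4 arrays and Ier3 on 2 of the 4, with the others at their measured values, and the p-values belong to the fitted differences.

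Ier2 and Egr1 pointed the other way. Their log2 differences, diet minus chow, were -0.94 for Ier2 (SE 0.27, limma adjusted p = 0.187) and -1.18 for Egr1 (SE 0.43, limma adjusted p = 0.241). Junb stood at -0.55, Jun at 0.84 and Dusp1 at 0.44, with limma adjusted p-values of 0.387 to 0.625. The 6-week pair decided several of these: without it Atf3 was 3.01 higher at 12 weeks than on chow (log2, limma adjusted p = 0.0486), and the difference of Egr1 was 0.031. Egr2 and Ier3 also fell under the threshold there, but neither was well above background on a chow array. Both entered that setting only through their 12-week arrays, where they were higher. Their calls are therefore no test, and their fitted sizes are not measured folds. In that setting, which leaves 1 residual degree of freedom, 1.47% of all genes were called higher, against 0.0% with the 6-week pair. Atf3 also passed, with a limma adjusted p of 0.0471, where only genes well above background on every array were tested, and 0.955% of those genes were called higher. It did not pass with a trend (limma adjusted p = 0.0514), normexp (0.0612), quantile processing (0.0982) or all 8 arrays (0.144). Nor did it pass with the mean over probes, the value table, no filter on dim probes, or without the 12-week pair.

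The last contrast of the fit set 12 against 6 weeks of diet. For 12 minus 6 weeks 7 of the 9 differences were above 0, 6 of them at least 2-fold, against 5.48% of all genes at least 2-fold higher, and none was 2-fold lower, against 2.41% of all genes. Of the 6, Egr1, Jun and Atf3 were well above background on all 4 arrays. Ier3 entered the fit only through its 12-week arrays, and Egr2 and Fos would not have entered without theirs. The part of these genes in the counts of this contrast, and their p-values, are therefore no test. No gene of the 14553 passed the adjusted threshold (0.0% in each direction by limma), while 6 of the 9 genes and 16.3% of all genes had an unadjusted p under 0.05. Egr1 was 5.36-fold higher at 12 weeks (log2 difference 2.42, SE 0.49, limma adjusted p = 0.160) and Ier3 at least 3.02-fold (limma adjusted p = 0.0922). Jun and Atf3 had log2 differences of 1.51 and 1.44. Egr2 and Fos were fitted at 2.95 and 1.71 with the WT array at 6 weeks not well above background (limma adjusted p = 0.113 and 0.218). Dusp1 at -0.41 and Ier2 at -0.28 were the 2 below 0.

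How alike the genes were over the arrays depended on 1 of them. Over the 15 pairs among the 6 genes well above background throughout, Pearson's r across the 8 arrays ran from -0.12 (Jun with Ier2) to 0.88 (Junb with Egr1), with a median of 0.53. Without the 20-week WT array it ran from -0.86 (Atf3 with Ier2) to 0.83 (Jun with Atf3), with a median of 0.13 and 7 of the 15 pairs below 0. Jun and Atf3 thus ran together on the 7 other arrays, and Ier2 ran against Atf3.

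**Figure D4:**
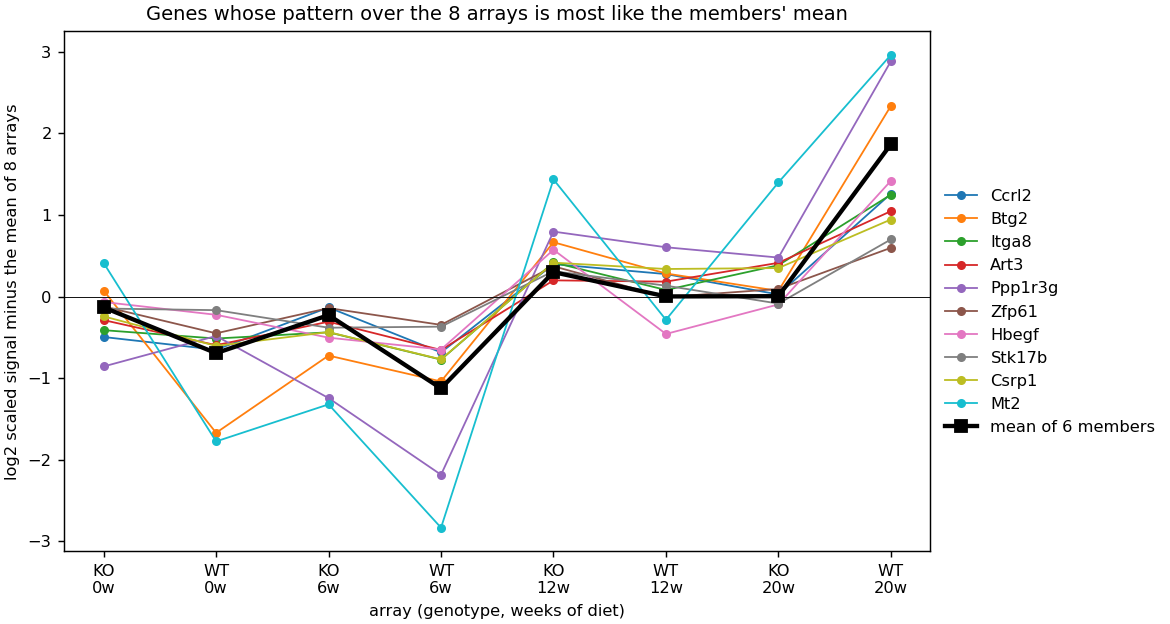
Log2 scaled signal minus the mean of the 8 arrays for the mean of 6 immediate early genes (black squares) and for the 10 genes most correlated with it, with KO and WT arrays side by side at 0, 6, 12 and 20 weeks. Each line is highest in WT at 20 weeks, and Mt2 and Ppp1r3g have the widest ranges.

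Among 2827 other genes that were well above background on all 8 arrays and ranged at least 2-fold, the 10 most like the mean of the 6 had an r of 0.90 to 0.95 over 8 arrays, and 0.68 to 0.91 without the 20-week WT array. In order they were Ccrl2, Btg2, Itga8, Art3, Ppp1r3g, Zfp61, Hbegf, Stk17b, Csrp1 and Mt2. Btg2, an antiproliferative early gene, had 982 in KO and 4733 in WT at 20 weeks. Ppp1r3g, which directs protein phosphatase 1 to glycogen in liver, had 1702 in KO and 9027 in WT at 20 weeks. Mt2, a metal-binding protein induced by glucocorticoids, zinc and inflammation, had 15233 in KO and 45017 in WT. Its r hardly moved without the 20-week WT array, 0.90 with it and 0.91 without. These r values describe 8 arrays that share slides and weeks, and genes picked by r must follow the pattern.

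Other early genes were taken from lists written with earlier results of these data known. In 4 such lists 79 genes were well above background at 20 weeks, of which 58 were lower and 21 higher in the KO. At least 2-fold lower were 17 of the 79 and at least 2-fold higher none, where 2.23% and 2.05% of all genes were. On chow the same lists held 4 genes at least 2-fold lower and 9 higher of 73 (4.69% and 3.15% of all genes). At 6 weeks they held 7 lower and 11 higher of 77 (3.76% and 3.28%), and at 12 weeks 0 lower and 10 higher of 78 (2.17% and 2.73%). Across 0 to 12 weeks no gene of these lists passed the limma test in any contrast.

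The AP-1 and bZIP partners were split at 20 weeks: 8 of 15 were lower and 7 higher, none by 2-fold, with a median log2 difference of -0.03. Jund, the most stable Jun relative, was 1.39-fold lower and Maff, a small Maf protein, 1.78-fold lower in the KO, while Atf4, the factor of the integrated stress response, was 1.51-fold higher. Of the EGR, NR4A and KLF factors 12 of 18 were lower and 6 higher, 4 by at least 2-fold downwards, with a median of -0.33. Myc, the growth regulator, had 96.0 in KO and 656 in WT (6.83-fold lower), Nr4a1, an orphan nuclear receptor, 1984 in KO and 7820 in WT (3.94-fold), Klf4 388 in KO and 1146 in WT (2.95-fold) and Nr4a2 73.8 in KO and 150.4 in WT (2.04-fold).

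Feedback phosphatases, decay factors and inhibitors were lower for 24 of 30 and higher for 6, with 7 at least 2-fold lower and a median of -0.37. Rgs1, which shortens G protein signals, had 86.4 in KO and 657 in WT (7.61-fold lower). Gadd45g, a stress sensor, had 9565 in KO and 67996 in WT (7.11-fold), and Socs3, the inhibitor of cytokine receptors, 1117 in KO and 3343 in WT (2.99-fold). Gadd45g was already lower in the KO on chow, 4987 against 19073 in WT, and at 6 weeks, 8054 against 20641 in WT, but not at 12 weeks, 6748 against 5540 in WT. Secreted and cytoskeletal early genes were lower for 14 of 16 and higher for 2, with 6 at least 2-fold lower and a median of -0.77. The cytokine Il1b was 3.54-fold, the stress hormone Gdf15 3.41-fold and the matricellular Ccn2 2.99-fold lower.

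**Figure D5:**
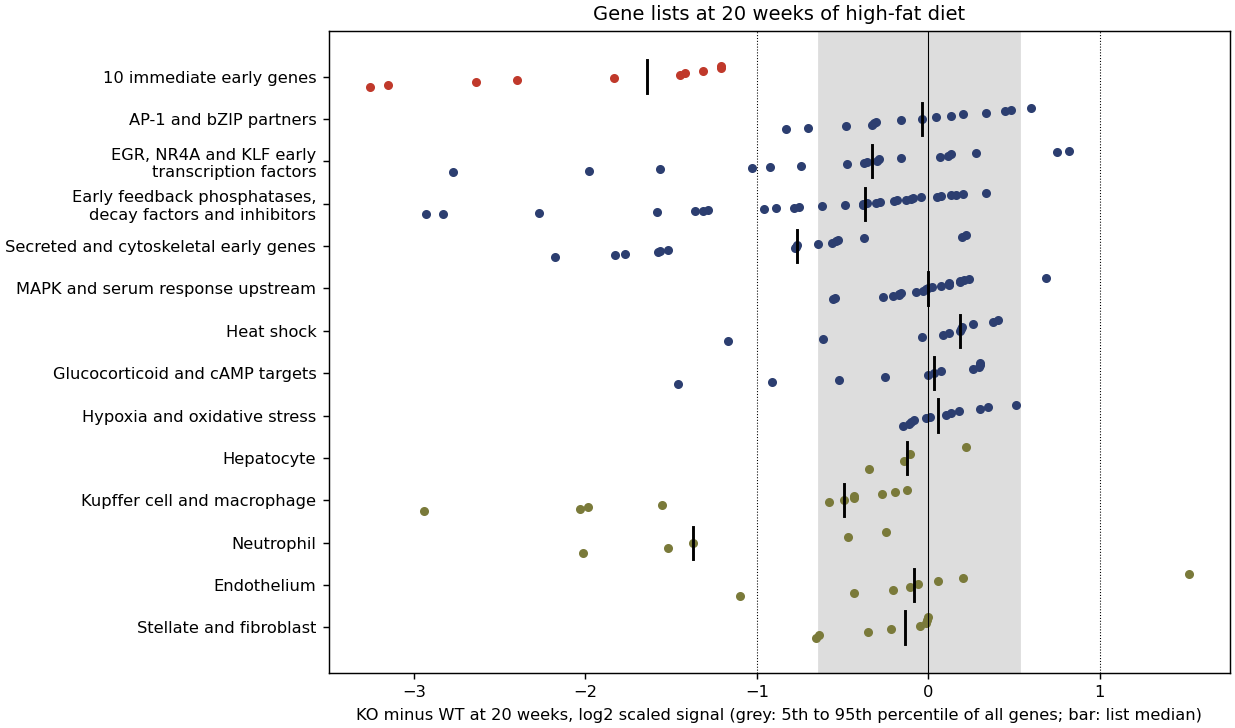
KO minus WT difference of log2 scaled signal at 20 weeks for the 10 immediate early genes (red), 8 other gene lists (blue) and 5 cell type marker lists (olive), 1 point per gene, with bars for list medians and a grey band for the 5th to 95th percentile of all genes. The red points all lie below -1, while MAPK genes centre on 0.

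Upstream signalling genes centred on 0. MAPK and serum response genes were lower for 11 of 21 and higher for 10, none by 2-fold, with a median of -0.00. Egfr, the EGF receptor, had the widest difference and was 1.61-fold higher in the KO. Heat shock genes were lower for 3 of 11 and higher for 8 (median 0.19), with Hspa1a, the inducible chaperone, 2.25-fold lower. Glucocorticoid and cAMP targets were lower for 5 of 11 and higher for 6 (median 0.03), and Igfbp1, a fasting-induced binding protein, was 2.75-fold lower. Hypoxia and oxidative stress genes were lower for 5 of 12 and higher for 7 (median 0.06), none by 2-fold.

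Cell type markers were compared in the same way. Markers of Kupffer cells and macrophages were lower in the KO at 20 weeks for 11 of 11, with a median of -0.49. At least 2-fold lower were 4, where 2.23% of all genes were: Cd163 (7.67-fold), Marco (4.08-fold), Timd4 (3.95-fold) and Vsig4 (2.93-fold). Others of the list differed little, with log2 differences of -0.27 for Clec4f, -0.20 for C1qb and -0.13 for C1qc. All 11 were well above background on every array. The sum of their signals, which the brightest probes weight most, ran from 22738 to 29497 over the KO arrays, against 21074 to 32687 over the WT arrays, and was 23530 in KO and 32687 in WT at 20 weeks. At the earlier weeks 3 of the 11 were lower and 8 higher in the KO on chow, 11 lower at 6 weeks (median -0.39), and 6 lower and 5 higher at 12 weeks. At least 2-fold lower were 1 at 6 weeks and 2 at 12 weeks (3.76% and 2.17% of all genes), and none was 2-fold higher. The 4 markers named above were lower at 12 weeks too: -1.41 for Marco, -1.18 for Timd4, -0.74 for Cd163 and -0.52 for Vsig4 (log2). Neutrophil markers were lower at 20 weeks for 5 of 5 (median -1.37), 3 by at least 2-fold, against the same 2.23% of all genes. Their sum ran from 659 to 1805 over the KO arrays, against 1813 to 4576 over the WT arrays, and most of it was S100a9, with 1571 in KO and 4062 in WT at 20 weeks. At the earlier weeks they were lower in the KO for 3 of the 3 compared on chow, 3 of 3 at 6 weeks and 3 of 4 at 12 weeks. The other 5 of the 10 listed neutrophil markers were not among the genes measured.

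Stellate and fibroblast markers were lower in the KO at 20 weeks for 8 of 8 (median -0.13) and cholangiocyte markers for 5 of 5 (median -0.58), none by 2-fold. Both lists were split on chow, and at 6 and 12 weeks they did not have this direction. Stellate and fibroblast markers were higher in the KO for 4 of 8 on chow (median -0.03), 8 of 8 at 6 weeks (median 0.46) and 6 of 8 at 12 weeks (median 0.12). Of the cholangiocyte markers compared, 2 of 4 were higher on chow (median -0.86), 3 of 3 at 6 weeks (median 1.55) and 4 of 4 at 12 weeks (median 1.77). On chow 2 of the 4 were at least 2-fold lower and 1 at least 2-fold higher (4.69% and 3.15% of all genes). Endothelial markers were lower for 5 and higher for 3 of 8 (median -0.08), with Lyve1 2.14-fold lower and Tek at least 2.68-fold higher, and hepatocyte markers lower for 3 and higher for 1 of 4 (median -0.12, none by 2-fold). In whole liver, fewer cells of a type and less RNA per cell cannot be told apart, and the part of these cell types in the immediate early gene values was not tested.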

How the data were processed

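Liver RNA (500 ng per sample, per the labels' protocols) was hybridised to 8 one-colour Agilent arrays. The authors produced the processed signal intensity in Agilent Feature Extraction (version 9.5 in the submitters' processing notes, and 9.5.3.1 with protocol GE1-v5_95_Feb07 and build mm8 per the file headers). The authors' deposited value table holds log2 values that equal the log2 processed signal minus each array's 75th percentile, with r of at least 0.9999 against the scanner files, and served as an alternative. The raw mean and background intensity in the deposited scanner files served only the normexp alternative (offset 50).

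Values of control spots (1639) and of spots flagged as outliers (75 to 130 on an array) were dropped, the remaining replicate spots averaged, and log2 values scaled to the 75th percentile. A gene was represented by its probe with the highest mean. Genes well above background on at least 2 arrays were kept, and limma 3.58.1 (R 4.3.3) was fitted as described, two-sided, with Benjamini-Hochberg adjustment over all genes. The fit was tested on simulated data. Tables and plots used Python 3.11.15, pandas 2.3.3, numpy 2.4.6 and matplotlib 3.10.9. The number of arrays limits the precision. Coordinates of promoters are GRCm38.p6, and no probe was moved between builds.

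The 10 genes and all lists were chosen with earlier results of these data known. Named beside them are Cd5l, the 10 genes of most like pattern and, from each list, genes that passed a limma contrast and up to 4 with the largest 20-week difference, of which 1 is not reported here. Alternatives covered quantile and normexp processing, the filter on dim probes, the probe rule, the value table, all 8 arrays, limma with a trend, and leaving out each pair. A slide block could not be fitted, since each slide held 1 genotype.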

Additional observations from a re-analysis of the deposited data

Results flagged for a closer look

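Junb and Egr1 stood out because the KO minus WT difference at 20 weeks had the opposite sign to every earlier week. For Junb it was -1.42 (log2) at 20 weeks, against 1.64, 0.19 and 0.69 at 0, 6 and 12 weeks, and its dimmer probe was below 0 at 6 weeks as well. For Egr1 it was -2.64 at 20 weeks, against 2.75, 1.85 and 0.82 at 0, 6 and 12 weeks. The difference between 20 weeks and the earlier weeks was not tested: there is 1 pair at 20 weeks, that pair chose the genes, and it also differs from the earlier arrays in Xist and the Y-linked genes.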

How the results depend on the processing

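No pairing other than by week was possible because each genotype and week has 1 array, so the groups share only a single replicate number. Week, a term of the fit, already sets KO against WT within a week. The median 20-week difference of the 10 genes stayed between -1.40 and -1.67 under quantile and normexp processing, other filters, the mean over probes and the value table. All 10 were at least 2-fold lower in the main setting, 8 with normexp, 6 of 6 where only genes well above background on all arrays were kept, and 5 at a 3-fold threshold. Genotype calls over all genes numbered 1, against 2 with normexp, 2 with the stricter filter, 2 with a trend and 5 with all 8 arrays. They numbered 0 to 1 when a pair was left out, 0 without the 6-week or the 12-week pair. Diet calls over all genes numbered 0, against 87 with normexp, 173 with the stricter filter, 173 with a trend, 358 with all 8 arrays and 0 to 272 when a pair was left out, the 272 without the 6-week pair. With all 8 arrays, which include the pair that chose the genes, the genotype difference turned to -0.25 for Fos, -0.10 for Jun, -0.32 for Atf3 and -0.18 for Ier2. When a pair was left out it ran from -0.25 to 0.73 for Jun, -0.068 to 0.50 for Ier2 and -0.89 to 0.13 for Dusp1, and the diet difference of Egr1 from -2.39 to 0.031. Of 177 values of single genes under these settings, 165 kept direction and side of the threshold, 4 passed it and 8 turned. The cause was not tested. The 4 include Egr2 and Ier3 without the 6-week pair, which entered that setting only through their 12-week arrays. Signals near background limit Fos, Fosb, Egr2 and Ier3 at 0 and 6 weeks.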
